A study of Fukomys damarensis and Heterocephalus glaber and Mus musculus with 160 samples.

Results

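Monomethylation of lysine 4 of histone H3 (H3K4me1) was compared between the liver and the heart of the mouse by chromatin immunoprecipitation followed by sequencing. The 9 libraries were those titled as mouse H3K4me1 in either tissue, 4 from liver and 5 from heart, of 160 samples in the series, of which 116 have a peak list. The series as a whole mapped histone marks in both organs of mole-rats, the guinea pig and the mouse. Every animal was an adult wild-type C57BL/6J male aged 2 months, with no treatment that differed between the groups. The liver libraries came from animals 85920, 85921, 85923 and 85924. The heart libraries came from animals 33017, 17_3498, 17_3500 and 17_3501 and from 1 pool of 3 animals, which counts as 1 library. No animal gave both an H3K4me1 liver and an H3K4me1 heart library, so the tissue and the animal change together. Livers were perfused with saline and clots were taken out of the heart ventricles before whole organs were diced, so each library mixes all cell types of its organ. In such tissue a mark present in fewer cells and a mark weaker in each cell cannot be told apart.

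H3K4me1 is deposited mainly by the MLL3 and MLL4 methyltransferases and is known for marking enhancers, both those in use and those held ready. At active promoters it typically flanks the start site, where trimethylation of the same lysine (H3K4me3) takes its place. Acetylation of lysine 27 (H3K27ac) marks the enhancers and promoters that are in use, and the use of enhancers generally differs more between cell types, such as hepatocytes and heart muscle cells, than the use of promoters.

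Each list gives peaks with a start, an end and the authors' fold, which is the enrichment of a peak over its background in that library. Fold was used here only to rank peaks within a list, as a percentile from 0 to 100. Positions are those of build GRCm38 on the 19 autosomes, counted from 1. Gene positions and genome sequence of that build were not used here, so regions are given by coordinates. The labelled tissues were set against the other marks of each organ, in regions of at least 2 libraries, rather than against marker genes. Every list had more of its peaks in H3K27ac regions of its own organ (42.3 to 59.4%) than of the other (21.2 to 36.6%). For H3K4me3 this held in heart lists alone. The 4 liver lists had 16.0 to 17.9% in liver regions and 16.9 to 18.4% in heart regions.

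Several libraries stood apart. The pooled heart list was the shortest, with 20489 autosomal peaks against 70229 to 128372 in the other heart lists, and its peaks were narrow, with a median of 381 bases against 517 to 571. Of its peaks, 59.4% lay in regions found in at least 2 heart H3K27ac libraries and 32.7% in such regions of liver. Heart library 33017 had the longest list and the highest single fold, 140 against 11 to 23.5 in the other heart libraries, and its list carries a tag that the labels do not explain. Liver library 85924 had a highest fold of 46.7 against 17.8 to 20.6 in the other liver libraries. The libraries also differ in how they were made. All 4 liver lists, 33017 and the pool carry library codes of the "do" series, and the other 3 heart libraries carry codes of the "vl" series. Each liver list was made against the input chromatin of its own animal, while the lists of 33017, 17_3498 and 17_3500 were all made against the input of 17_3498. The comparisons are therefore given with and without the pool, while the regions named by position come from the regions made with it. Read depth is unknown.

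Liver and heart did not differ in the extent of H3K4me1 beyond the spread between libraries. The liver lists held 85495, 88508, 91531 and 112635 autosomal peaks for 85920, 85921, 85923 and 85924. The heart lists held 128372 for 33017, 104093 for 17_3498, 71741 for 17_3500, 70229 for 17_3501 and 20489 for the pool. The liver values lay inside the range of the heart values. Covered bases ran from 60.3 to 75.3 Mb in liver and from 49.1 to 109 Mb in heart, with 9.27 Mb in the pool. On the log2 scale liver exceeded heart by 0.48 in peak number and 0.59 in covered bases. Median width differed by 0.06 and the 90th percentile of width by 0.18 (adjusted exact permutation p = 0.722 for each of the 4 measures). Without the pool the 4 differences were 0.05, 0.02, −0.04 and −0.02 (adjusted exact permutation p = 0.943 each). The smallest exact p that these tests could give was 0.00794 with the pool and 0.0286 without it.

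**Figure D1:**
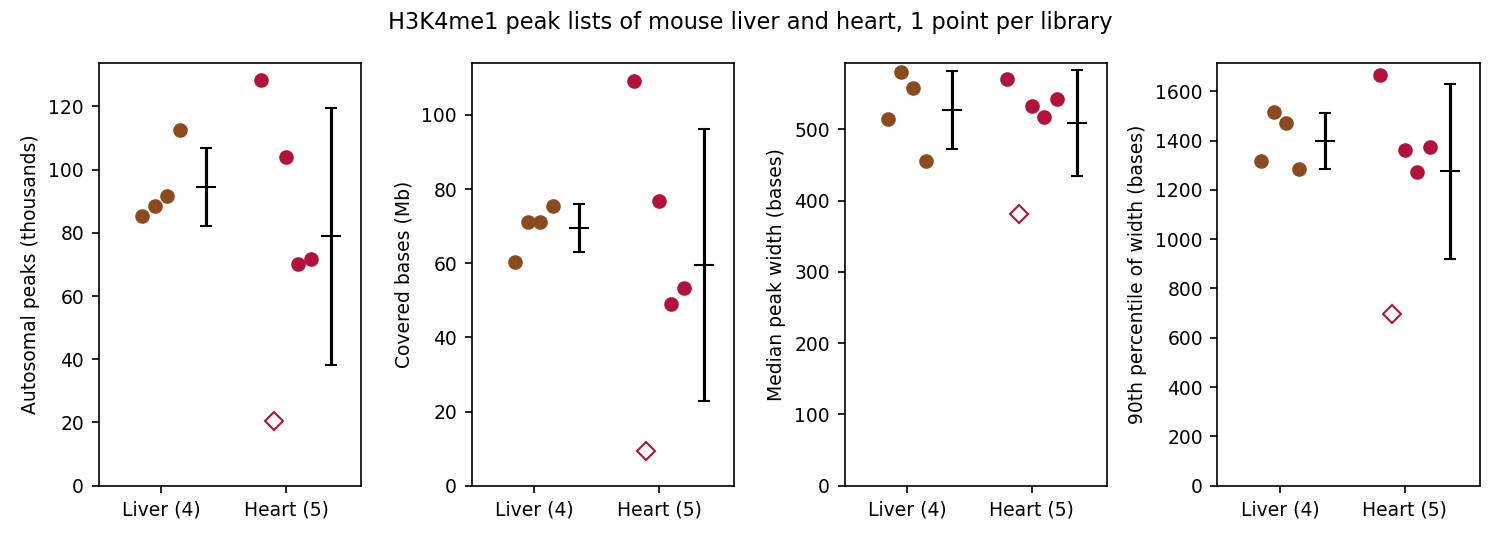
Number of autosomal peaks, bases covered, median width and 90th percentile of width of each H3K4me1 list, with 1 point per library and the mean ± SD beside each tissue (4 liver, 5 heart). The open diamond is the pooled heart library, which lies below every other library in all 4 measures, and the liver points fall inside the range of the heart points in peak number and covered bases.

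Most H3K4me1 peaks were short in both organs, with a tail of wide domains. Median widths were 515, 580, 558 and 456 bases in the liver libraries in the order above. In heart they were 571 in 33017, 532 in 17_3498, 543 in 17_3500, 517 in 17_3501 and 381 in the pool. Peaks over 2 kb made up 3.53 to 5.28% of the liver lists and 3.37 to 6.83% of the heart lists without the pool. In the pool they made up 0.112%. Wider peaks also had higher fold: Spearman's correlation of width and fold across the peaks of a list was 0.571 to 0.630 in liver and 0.326 to 0.620 in heart, a description in which peaks of 1 list share a library.

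The places marked most strongly separated the organs. Among the 20000 peaks of highest fold in each list, the Jaccard index (bases covered by both lists over bases covered by either) averaged 0.248 for pairs from the same tissue and 0.105 for pairs from different tissues. The difference of 0.142 was the largest that any assignment of the 9 libraries to groups of 4 and 5 gave (one-sided exact permutation p = 0.00794). Without the pool the averages were 0.289 and 0.114 and the difference 0.175 (exact permutation p = 0.0286, again the smallest possible). Liver pairs ran from 0.277 to 0.358 and heart pairs without the pool from 0.216 to 0.306. Pairs of liver with heart, again without the pool, ran from 0.0930 to 0.149, below every pair of the same tissue that left out the pool. The pool shared less with every library, but more with the other heart libraries (0.121 to 0.128) than with liver (0.0647 to 0.0750). Its values with the other hearts lay inside the range of the pairs of liver with those hearts. Within liver, 85924 was the farthest, with 0.277 to 0.314 against 0.350 to 0.358 among the other liver libraries.

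**Figure D2:**
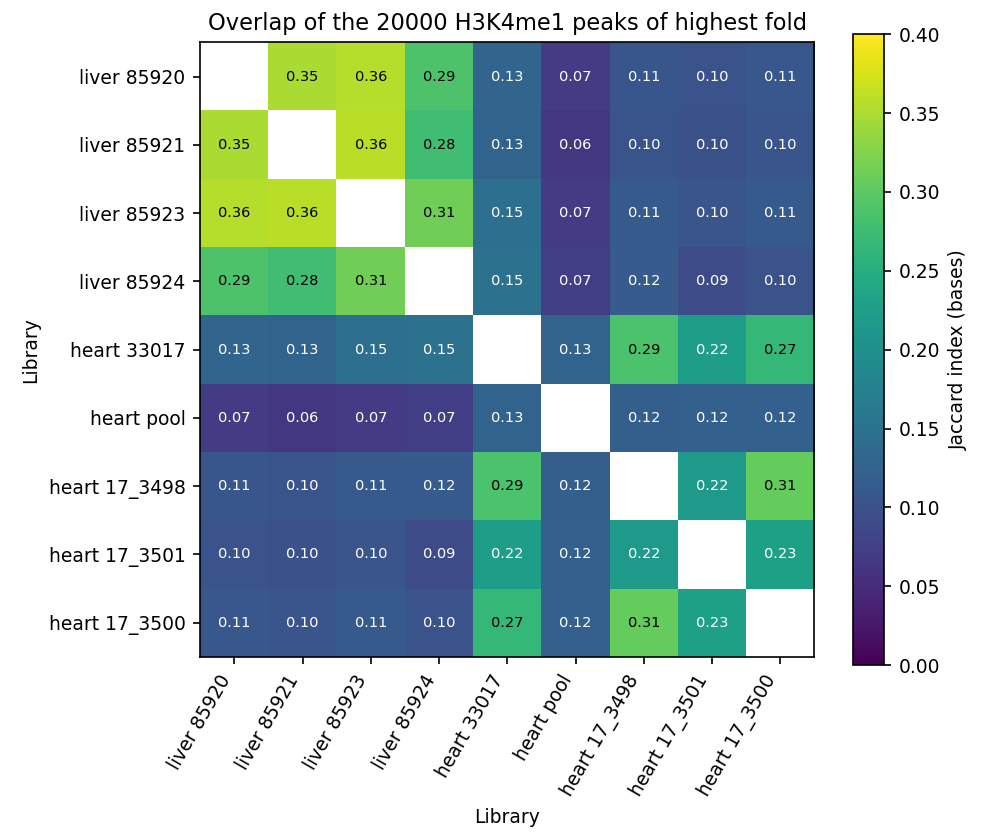
Jaccard index, as a share of bases from 0 to 1, of the 20000 H3K4me1 peaks of highest fold for each of the 36 pairs of libraries. The liver block (0.277 to 0.358) and the heart block without the pool (0.216 to 0.306) stand above the pairs of different tissues, and the pool is low with every library.

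The peaks were then placed on reference regions, which are stretches covered in at least 2 libraries of a tissue, joined over the tissues. A region counted as found in a library where a peak overlapped it by at least 50% of the shorter of the pair. Of 158165 regions, 35778 (22.6%) were found in at least 2 libraries of each tissue. A further 44623 (28.2%) were found in at least 2 liver and 0 heart libraries and 54589 (34.5%) in at least 2 heart and 0 liver libraries. The remaining 23175 (14.7%) lay between these definitions, with at least 2 libraries of 1 tissue and exactly 1 of the other. Without the pool the counts were 35488 in both, 44764 in liver alone and 53965 in heart alone, of 157461. Heart alone rested most on the longest list: 33017 was found at 84.6% of those regions, and without it they numbered 36491. The pool was found at 5.46% of heart-alone regions and at 27.8% of the regions in both.

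Regions in both tissues were the wide ones. Their median width was 1234 bases against 427 for liver alone and 360 for heart alone. They covered 60.4 Mb, more than liver alone (25.4 Mb) and heart alone (25.7 Mb) together. A region in both tissues joins the overlapping stretches of both, so it can be longer than the stretch of either tissue. Widths of regions enter into whether they are found, so peaks were also measured with classes made from the other 8 libraries. For each library, the median width of its peaks in both-tissue regions was then divided by that of its peaks in regions of its own tissue alone. In liver the ratio was 1.23 in 85920, 1.12 in 85921, 1.22 in 85923 and 1.30 in 85924. In heart it was 1.34 in 33017, 1.15 in 17_3498, 1.19 in 17_3500, 1.20 in 17_3501 and 1.12 in the pool. Peaks at regions of both tissues were wider in 9 of 9 libraries, by 0.27 ± 0.0899 on the log2 scale (SD, n = 9; exact sign-flip p = 0.00391). Without the pool the value was 0.28 in 8 of 8 (exact sign-flip p = 0.00781). They also ranked higher, by 6.62 ± 4.85 percentile points of fold in 9 of 9 libraries (exact sign-flip p = 0.00391), with 0.724 points in 85921 as the lowest and 17.0 in 33017 as the highest. Without the pool the difference was 7.12 ± 5.02 in 8 of 8 (exact sign-flip p = 0.00781). A region in both tissues needs at least 2 libraries of each tissue, while a region of a single tissue needs at least 2 libraries in all. Classes made without the measured library keep this inequality, and its part in the differences of width and rank was not tested.

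The width ratio itself did not differ between the organs beyond their spread, at 0.02 on the log2 scale, liver minus heart (exact permutation p = 0.802). It was −0.00413 without the pool (p = 0.943, exact). This value rested on 33017: without that library it was 0.23 (exact permutation p = 0.0286). Cut to lists of equal length, as long as that of the pool, it was 0.31 (exact permutation p = 0.00794).

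Regions of a single organ differed in how many libraries shared them. In liver, 13505 regions (8.54% of all) were found in all 4 liver and 0 heart libraries. In heart, 920 regions (0.582%) were found in all 5 heart and 0 liver libraries. Without the pool these were 13561 (8.61%) in liver and 7253 (4.61%) in heart. The number of libraries required differs between the organs with the pool, so the counts are not on the same footing. Regions found in exactly 2 libraries made up 35112 of the heart-alone regions and 19389 of the liver-alone regions. Library 85924 was found at 14.7% of heart-alone regions when classes were made without it, against 1.78 to 3.20% for the other liver libraries. Likewise 33017 was found at 15.7% of liver-alone regions, against 0.266 to 4.56% for the other heart libraries.

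Among regions of all 4 liver and 0 heart libraries, the one of highest mean rank was chr1:193287100-193289129. Its fold was 12.5 in 85920, 13.2 in 85921, 15.2 in 85923 and 35.6 in 85924, above 99% of the peaks in each list. Its summed peak width was 1121 to 2041 bases. The next were chr13:41196151-41198295, chr16:4701510-4702751, chr13:91747114-91748449 and chr8:119430466-119432418, with mean percentiles of 99.6, 99.4, 99.4 and 99.1. Each of these 5 had an H3K27ac peak in 4 of 4 liver libraries. In heart, H3K27ac was listed there in 0 of 6 libraries at the first 4 and in 2 of 6 at the last.

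Among regions of all 5 heart and 0 liver libraries, chr14:78900046-78901920 ranked highest. Its fold was 10.1 in 33017, 10.4 in 17_3498, 12.6 in 17_3500, 7.72 in 17_3501 and 6.43 in the pool, for a mean percentile of 95.8. Then came chr6:85348889-85350248, chr1:179573589-179575866, chr5:24541108-24542081 and chr15:86066599-86070940, with mean percentiles from 94.7 to 95.6. H3K27ac was listed at these 5 in 2, 3, 2, 5 and 6 of 6 heart libraries and in 0 of 4 liver libraries at each. These regions were chosen for their H3K4me1, so their folds are a description.

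The largest sums of peak width lay at regions shared by the organs. At chr2:27707881-27763429, 55549 bases long, the peaks found in a library summed to 54298 ± 1701 bases in liver (SD, n = 4) and 29702 ± 7607 bases in heart (n = 5), with 19273 in the pool as the lowest. At chr14:25461212-25502392, 41181 bases long, the sums were 38603 ± 787 in liver and 35209 ± 8327 in heart, with 20538 in the pool against 37314 to 41184 in the other heart libraries. The third by that sum, chr2:27678151-27705688, gave 26170 ± 357 and 23414 ± 3742. H3K27ac peaks were present at all 3 in 4 of 4 liver and 6 of 6 heart libraries. These values can be sums over separate peaks. In the pool each is such a sum, since its widest single peak was 3049 bases. In the liver libraries the widest single peak was 23246 to 25722 bases.

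Within a single organ the sum of peak widths picked out some slivers beside a wide peak: a liver-alone region of 5 bases at chr2:27707779-27707783, and heart-alone regions of 604, 918 and 215 bases at chr4:155194371-155194974, chr8:11314806-11315723 and chr8:11314503-11314717. At the first of these heart regions 33017 had a peak of 38671 bases against 446 and 591 in the other 2 libraries. The longest regions by their own length, a choice made after these values were seen, gave a clearer picture. For liver alone they were chr2:163550882-163561652 (10771 bases), chr14:30012410-30020827 (8418 bases) and chr11:35967681-35974703 (7023 bases). At the first, the peaks summed to 10607, 10378, 9546 and 10626 bases in 85920, 85921, 85923 and 85924, so the summed width was nearly the same in every liver. For heart alone they were chr6:85361264-85372396 (11133 bases), chr1:39956654-39963405 (6752 bases) and chr4:148908959-148915521 (6563 bases). At the first of those the sums were 12609 in 33017, 9310 in 17_3498, 10149 in 17_3500, 8479 in 17_3501 and 293 in the pool. Leaving out any 1 liver library redrew the liver regions on chromosomes 14 and 11 as shorter ones. Mean peak width then fell from 7829 bases to between 3010 and 5391 on chromosome 14, and from 6148 to between 2901 and 4756 on chromosome 11. On chromosome 2 it fell from 10289 bases to 7534 without 85920, 9233 without 85921 and 8123 without 85924. At the heart region on chromosome 4 it was 4386 bases, and 889 with regions redrawn without 33017.

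Regions of a single organ lay next to others of the same organ. Of the neighbours of liver-alone regions, 59.6% were themselves liver alone, which make up 28.2% of all regions. Of the neighbours of heart-alone regions, 61.1% were heart alone, against 34.5% of all. Without the pool the shares of such neighbours were 59.7 and 61.0%. Neighbouring regions can be pieces of a single domain, so these shares are a description. The longest unbroken series of liver-alone regions held 87 regions at chr12:103548258-103994214 and spanned 446 kb, of which 60.4 kb was in regions. The next held 64 regions at chr2:147899103-148038960, over 140 kb. The longest of heart held 86 regions at chr4:114408938-114625735, over 217 kb, and 76 regions at chr13:11934633-12099400, over 165 kb. Of those 76 heart regions, 23 were found in 3 or more heart libraries, and the series held 44 regions without 33017 and 49 without 17_3498. The number of regions in these series also changed when the lists were cut or the heart libraries limited, and the cause was not tested. With every list cut to the length of the pool's, the 2 liver series held 21 and 11 liver-alone regions and the 2 heart series 19 and 7 heart-alone regions. With the do-series hearts alone the heart series held 5 and 0. Over the chromosomes, liver-alone regions per heart-alone region ran from 0.604 on chromosome 18 to 1.04 on chromosome 19.

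Strength of the mark was compared at the 5730 regions (3.62% of all) with a peak in all 9 libraries, where every list has the same length. Ranks of fold there agreed more within an organ. Spearman's correlation averaged 0.339 for pairs from the same tissue and 0.125 for pairs from different tissues (difference 0.214, one-sided exact permutation p = 0.00794). Without the pool, over the 12335 regions found in the other 8 libraries, the averages were 0.373 and 0.135 (difference 0.239, exact permutation p = 0.0286). Over the 5730 regions, liver pairs ran from 0.443 to 0.518 and heart pairs without the pool from 0.211 to 0.485. The pool reached 0.148 to 0.159 with the other hearts and 0.0707 to 0.0902 with the livers. Its values with the other hearts lay inside the range of the pairs of liver with those hearts, 0.105 to 0.190.

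At those regions 141 ranked higher in liver (2.46% of 5730) and 182 higher in heart (3.18%) by limma on normal scores of the ranks, at a Benjamini-Hochberg adjusted p of at most 0.05. Every liver library lay above every heart library at 261 regions (4.55%), and every heart library above every liver library at 288 (5.03%). Without the pool, 281 of 12335 ranked higher in liver (2.28%) and 365 higher in heart (2.96%). The total of 323 was 81 without 85923, 148 without 85921, 170 without 85920, 193 without 85924, 185 without 17_3498, 200 without 17_3500 and 208 without 33017.

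**Figure D3:**
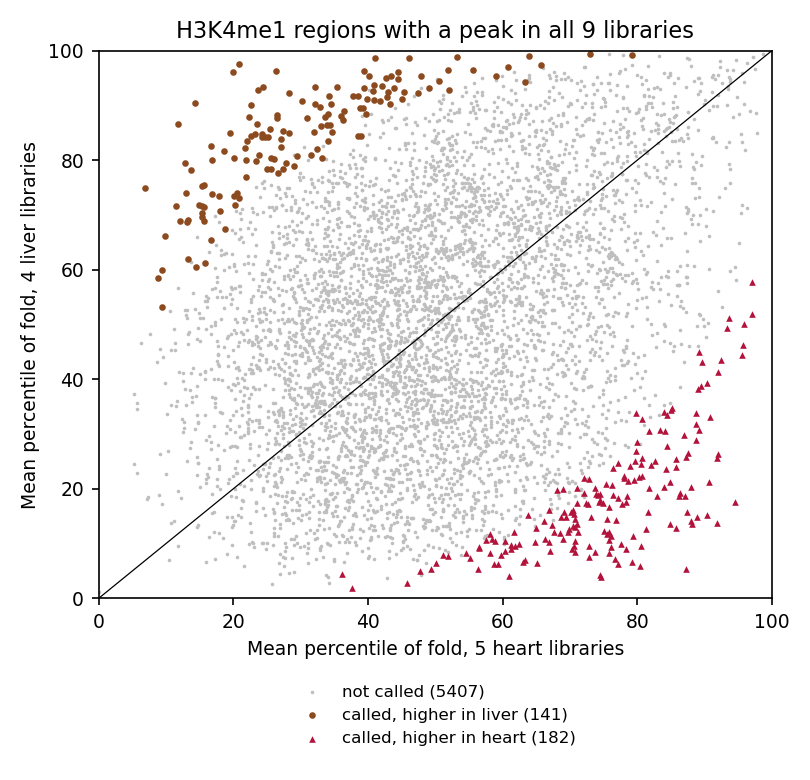
Mean percentile of fold in the 4 liver libraries against that in the 5 heart libraries at the 5730 regions with a peak in all 9, with 1 point per region and the line of equal rank. The 141 regions called higher in liver lie at the upper left and the 182 called higher in heart at the lower right, and most regions are called in neither direction.

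The region highest in liver relative to heart was chr11:120577568-120581119. Its percentile of fold among the shared regions was 96.7 in 85920, 99.1 in 85921, 96.5 in 85923 and 98.2 in 85924. In heart it was 5.35 in 33017, 18.4 in 17_3498, 23.2 in 17_3500, 16.1 in 17_3501 and 41.5 in the pool. The tissues did not overlap, and the difference of 76.7 points had a limma adjusted p of 0.00117. Its peaks summed to 3507 ± 196 bases in liver and 1351 ± 797 in heart. The next 4 were chr2:30958960-30967424, chr10:128919371-128922989, chr7:64191726-64193556 and chr14:64653739-64660394, the first 3 with differences of 76.2, 76.2 and 74.9 points (limma adjusted p = 0.00117 to 0.00384). At the last of them the limma adjusted p was 0.00353. With regions redrawn without 85923, which also changes the set tested, the difference was 48.6 points (limma adjusted p = 0.0871), and the cause was not tested. At chr2:30958960-30967424 peaks summed to 8237 ± 304 bases in liver and 773 ± 310 bases in heart, and H3K27ac was listed in 4 of 4 liver and 0 of 6 heart libraries. At the regions on chromosomes 11, 10, 7 and 14 it was listed in 4 of 4 liver libraries. In heart it was listed there in 2, 6, 4 and 6 of 6 libraries.

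The region highest in heart relative to liver was chr2:91970244-91972726. Its percentile was 91.3 in 33017, 97.5 in 17_3498, 85.7 in 17_3500, 93.3 in 17_3501 and 68.5 in the pool. In liver it was 5.72 in 85920, 5.07 in 85921, 1.97 in 85923 and 8.56 in 85924. The tissues did not overlap, and the difference, liver minus heart, was −81.9 points (limma adjusted p = 0.00117). The next 4 were chr14:25585273-25590315, chr17:29337675-29343596, chr8:11255459-11262072 and chr19:47901405-47904154, with differences from −78.2 to −74.6 points (limma adjusted p = 0.00117 to 0.00438). The largest gap in width among these was at chr8:11255459-11262072, with 5036 ± 1493 bases in heart and 705 ± 575 bases in liver. H3K27ac was listed at the first 4 of the 5 heart regions in every library of both organs. At the last, on chromosome 19, it was listed in 1 of 4 liver and 6 of 6 heart libraries.

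Rank and width moved together at these regions. Of the 141 regions called higher in liver, 124 were also wider in liver by over 25%, with a median liver-to-heart ratio of 1.86. Of the 182 called higher in heart, 170 were wider in heart by that margin, with a median liver-to-heart ratio of 0.412. Over all 5730 regions, 2080 were wider in liver and 1486 wider in heart by that margin. Widths lay within that margin of each other at 2164 of the 5730 regions and at 27 of the 323 called. With ranks and test limited to regions within that margin, 1 region was called. Without the pool, 240 of the 281 regions called higher in liver were wider in liver, and 332 of the 365 called higher in heart were wider in heart. Regions within 1 kb of one found in at least 2 H3K4me3 libraries made up 63.0% of all shared regions. The share was 55.3% among those called higher in liver and 28.6% among those called higher in heart.

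The position of H3K4me1 relative to H3K4me3 differed between classes. Of the regions in both tissues, 52.2% lay within 1 kb of an H3K4me3 region, with a median distance of 0.293 kb. The share was 17.0% for liver alone, with a median of 12.7 kb. It was 8.43% for heart alone, with a median of 21.3 kb. Regions in both tissues were also wider, as given above, and the part of width in these distances was not tested. With H3K4me1 regions made without the pool the shares were 52.2, 17.0 and 8.40%. Single-organ H3K4me1 thus lay mostly away from H3K4me3: 54.8% of liver-alone and 67.9% of heart-alone regions were over 10 kb from it.

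Around promoter-marked sites H3K4me1 formed a flank in 8 of 9 libraries. At 11627 H3K4me3 regions found in all 10 mouse liver and heart H3K4me3 libraries, an H3K4me1 peak covered the centre in 25.9% in 85920, 25.4% in 85921 and 29.7% in 85923. Coverage in these 3 livers rose to 42.1, 43.9 and 47.5% at 700 bases from the centre. In 85924 it was 51.9% at the centre, 51.8% at 100 bases and 51.9% at 200 bases, and lower beyond, with no rise to a flank. In heart the centre was covered in 23.5% in 33017, 12.8% in 17_3498, 8.35% in 17_3500, 7.11% in 17_3501 and 1.81% in the pool. The highest heart coverage, 6.59% in the pool and 26.0 to 54.4% in the others, lay at 800 or 900 bases. The highest value over that at the centre was 1.00 to 1.73 in liver and 2.31 to 3.65 in heart, which do not overlap. This contrast was seen in the data and was not tested.

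**Figure D4:**
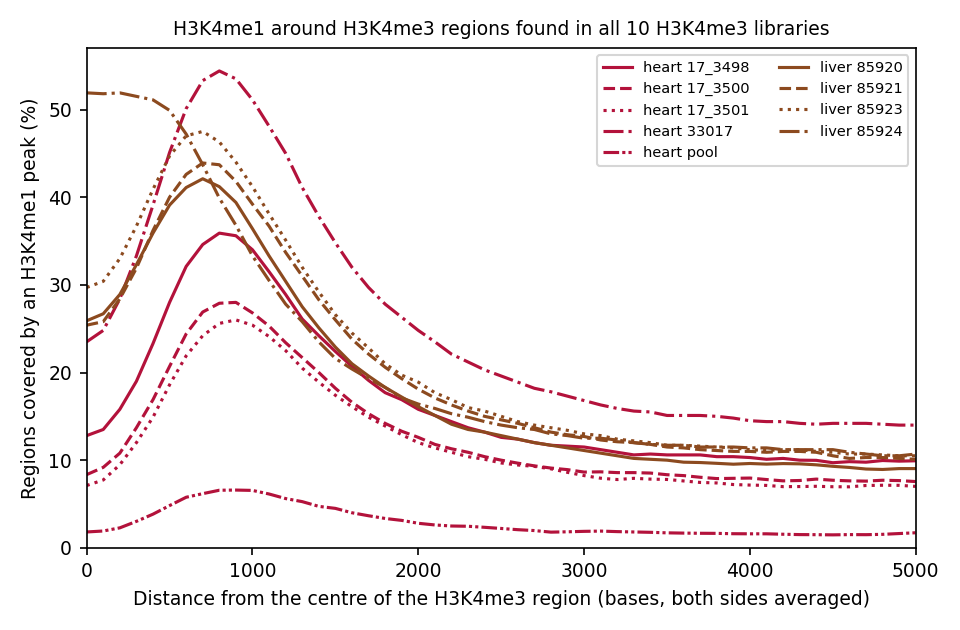
Percent of 11627 H3K4me3 regions covered by an H3K4me1 peak, against distance in bases from the region's centre, with 1 line per H3K4me1 library. Coverage rises to a flank at 700 to 900 bases in every library except liver 85924, which is level from the centre (51.9%) to 200 bases and lower beyond.

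Single-organ H3K4me1 regions carried H3K27ac far more often in libraries of that organ than in those of the other. H3K27ac libraries did not choose the regions, though the 4 liver ones come from the same animals and inputs as the H3K4me1 libraries, and 1 of the 6 heart ones from the same pool and input. The H3K4me1 lists of 33017, 17_3498 and 17_3500 were made against the same input as H3K27ac list 33018, and that of 17_3501 against the same input as H3K27ac list 6837. Liver H3K27ac libraries had a peak at 48.6, 50.4, 49.0 and 47.5% of liver-alone regions and at 3.65, 4.06, 4.07 and 3.15% of heart-alone regions. Heart H3K27ac libraries had a peak at 5.24 to 9.63% of liver-alone regions and at 18.2 to 43.3% of heart-alone regions. Over all regions the shares were 28.3 to 31.0% in liver libraries and 20.9 to 39.0% in heart libraries. Liver-alone regions thus stood above that level in every liver library. Heart-alone regions lay near it in the heart libraries, from 18.5% against 22.3% in 17_36584 to 43.3% against 39.0% in 73317, and above it only in 73317 and 6837. Regions of the other organ lay below it in all 10 libraries. No heart library reached the lowest liver library at liver-alone regions, and the reverse held at heart-alone regions. The log2 ratio of the shares, liver alone over heart alone, was 3.72 ± 0.14 in liver (SD, n = 4) and −1.92 ± 0.25 in heart (SD, n = 6). The difference was 5.63 (exact permutation p = 0.00476, which no assignment of 10 libraries could lower; adjusted p = 0.00714 over 3 tests). With H3K4me1 regions made without the pool it was 5.62.

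At regions in both tissues the shares with H3K27ac overlapped, at 44.3 to 49.7% in liver libraries and 41.8 to 63.9% in heart libraries. The single-organ shares were higher at regions found in every library of the organ: 70.9 to 73.2% of the 13505 liver regions in liver libraries and 53.4 to 81.0% of the 920 heart regions in heart libraries. The other organ's libraries had a peak at 4.86 to 9.49% and 6.20 to 9.02% of these.

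Regions ranked higher in an organ also carried H3K27ac more often there. Liver H3K27ac libraries had a peak at 87.9 to 91.5% of the regions called higher in liver and at 57.7 to 67.6% of those called higher in heart. Heart H3K27ac libraries had a peak at 58.2 to 82.3% and 79.1 to 96.7% of them. At all shared regions the shares were 58.5 to 63.7% in liver libraries and 58.8 to 77.7% in heart libraries. Regions called higher in the other organ thus lay near that level, and regions called higher in the library's own organ lay above it. The log2 ratio was 0.53 ± 0.08 in liver (n = 4) and −0.37 ± 0.11 in heart (n = 6), a difference of 0.90 (exact permutation p = 0.00476, adjusted p = 0.00714), and of 1.04 with regions made without the pool. Regions called higher also had wider peaks in that organ, as given above, and the part of width in this difference was not tested.

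H3K4me3 was found less often at heart-alone than at liver-alone regions in all 10 libraries, and the difference between organs did not pass the threshold. Liver H3K4me3 libraries had a peak at 6.43 to 8.12% of liver-alone and 0.691 to 0.868% of heart-alone regions. Heart H3K4me3 libraries had a peak at 3.48 to 20.2% of liver-alone and 0.557 to 4.49% of heart-alone regions. Over all regions the shares were 8.62 to 10.6% in liver libraries and 5.74 to 16.2% in heart libraries. Liver-alone shares were below the share over all regions in 9 of 10 libraries, and above it in 6837, with 20.2% against 16.0%. The log2 ratios were 3.29 ± 0.08 in liver (n = 4) and 1.96 ± 1.12 in heart (n = 6), so both organs' H3K4me3 lists overlapped liver-alone regions more often than heart-alone regions. The difference of 1.33 reached an exact permutation p of 0.0524. The heart value was moved most by H3K4me3 library 6837, which had a peak at 33.3% of the regions found in all 4 liver and 0 heart H3K4me1 libraries, against 3.21 to 4.57% in the other 5 heart H3K4me3 libraries. This library, labelled heart, goes against the other heart H3K4me3 lists at those regions, and whether its list holds signal from liver was not tested. With H3K4me1 regions made without the pool the difference was 1.30 (exact permutation p = 0.0524). Without 6837 it was 1.67 (exact permutation p = 0.0159), and without 6839 it was 1.47 (exact permutation p = 0.0476). Without the pool's H3K4me3 library it was 1.01 (exact permutation p = 0.0794).

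**Figure D5:**
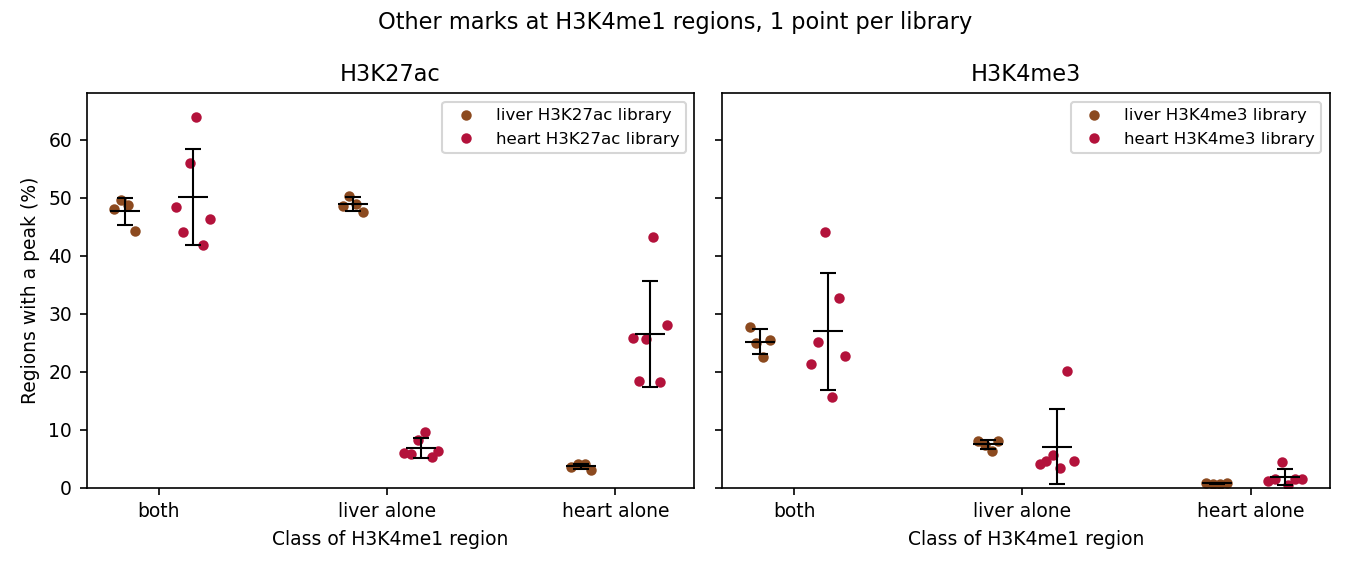
Percent of H3K4me1 regions in both tissues, in liver alone and in heart alone that have an H3K27ac peak (left) or an H3K4me3 peak (right), with 1 point per library and mean ± SD (4 liver and 6 heart libraries of each mark). Liver H3K27ac libraries are high at liver-alone regions (47.5 to 50.4%) and low at heart-alone regions (3.15 to 4.07%), and the heart H3K4me3 point at 20.2% of liver-alone regions is library 6837.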

How the data were processed

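H3K4me1 peak lists of 4 mouse livers and 5 mouse hearts were compared, with lists of H3K27ac (4 and 6) and H3K4me3 (4 and 6) as separate readouts. MACS2 is named by the submitters' processing notes; version, settings and aligner were not given in the sources used here. Every library has its own list, called against an input on build GRCm38, per the file names. Deposited peaks carry a fold (a linear ratio over background), −log10 p-values and −log10 q-values, and a whole-number score, all the authors' own; the lowest deposited −log10 q was 1.30. Fold was used through its rank within a list. Lists hold no read numbers, so depth is unknown and no interval was derived from it. 0 columns of per-sample values were left unused as unmapped. Libraries were the replicates.

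Peaks were compared on the autosomes in SciPy 1.17.1 and NumPy 2.4.6 under Python 3.11.15, with tables in pandas 2.3.3 and plots by Matplotlib 3.10.9. A consensus needed 2 libraries and an overlap of 50% of the shorter. Single values were tested by exact permutation over libraries, two-sided except for tissue separation, and ratios within libraries by exact sign flips. Ranks at shared regions were tested with limma 3.58.1 in R 4.3.3, on normal scores, at a Benjamini-Hochberg adjusted p of 0.05. A region's fold in a library was its highest peak's, and its peak width was the sum over the peaks found. The scripts were tested on simulated data.

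Named regions, on autosomes other than chromosome 18, were the 5 called shared regions with the largest rank difference in each direction, the 5 of highest mean percentile found in every library of 1 tissue and 0 of the other, the 3 of largest mean peak width per class, and the 2 longest series of neighbouring regions per tissue. The members, lists and tests were chosen with earlier results of these data known. Alternatives left out each library, changed thresholds, list length and overlap, and kept to 1 library series or 1 input.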

Additional observations from a re-analysis of the deposited data

Results flagged for a closer look

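In groups of 4 to 10 libraries, a value was marked where its gap to the nearest other library was large against the whole range of its group (Dixon's 95% critical value). Of 80 groups of values, 10 were marked, where chance marks about 1 in 20. In liver, 85924 had the highest fold (46.7) and the largest share of H3K4me3 centres covered by H3K4me1 (51.9%). Liver H3K4me3 library 85923 had a peak at 27% of the shared regions called higher in liver, the lowest of the 4. Liver library 85921 had the lowest percentile, 79.3, at chr10:128919371-128922989. In heart, 33017 had the highest fold (140). The pool had the lowest median width (381 bases) and the largest share of H3K4me1 peaks in its own tissue's H3K4me3 regions (16.6%). The pool's H3K4me3 library had a peak at 4.49% of heart-alone regions and at 55.5% of the shared regions called higher in heart, both the highest of the 6 heart H3K4me3 libraries. Heart H3K4me3 library 6837 had a peak at 20.2% of liver-alone regions.

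Effects that differed between the organs by their own test were those of H3K27ac. The log2 ratio of its shares at liver-alone over heart-alone regions differed by 5.63, liver minus heart, and that at shared regions of unequal rank by 0.90 (exact permutation p = 0.00476 each).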

How the results depend on the processing

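Separation of the top peaks, separation of fold ranks, the wider and higher-ranked peaks at regions of both tissues, and both H3K27ac differences kept their direction under every alternative run. They passed the threshold except for the separations in the do series, where 4 against 2 libraries allow no p below 0.0667: 0.191 for top peaks and 0.294 for fold ranks. The only heart pair of that series, 33017 with the pool, had a Jaccard index of 0.128 for top peaks. That was below 33017 with every liver library (0.129 to 0.149), so within this series the heart libraries did not group together. The H3K27ac differences were 5.01 and 1.49 there (exact permutation p = 0.00476 each), and 3.54 (p = 0.00476) and 0.36 (p = 0.0286) at equal list length, both exact. Separation of fold ranks was 0.0682 with widths within 25% (exact permutation p = 0.0159). List measures changed sign without a change of call: against the 3 hearts that share 1 input, peak number was −0.07, covered bases −0.14, median width −0.06 and the 90th percentile −0.07; median width was also −0.02 at a −log10 q of at least 4 and −0.00179 without the pool at equal list length; leaving out 1 library gave −0.04 (the pool) to 0.13 for median width and −0.02 (the pool) to 0.30 for the 90th percentile. The tissue difference of the width ratio ran from −0.10 to 0.23 with 1 library left out (−0.06, −0.06, −0.10, −0.01 and −0.00413 without 85920, 85921, 85923, 85924 and the pool), was −0.00444 at an overlap of 1 base and 0.31 at equal list length. The H3K4me3 difference passed the threshold at 1.56 with an overlap of 1 base and at 1.38 with regions of at least 100 bases, was 1.47 or 1.67 without 6839 or 6837, and ran from 0.94 (without H3K4me1 33017) to 1.67 over all libraries left out; it was 0.75 at equal list length (exact permutation p = 0.200) and 0.98 in the do series (exact permutation p = 0.176).

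The number of shared regions called moved most: 81 to 646 with 1 library left out, 154 at a −log10 q of at least 4, 20 in the do series, 20 at equal list length, 957 ranked by −log10 p, 1 with widths within 25% and 649 with hearts of 1 input. The sets of regions tested differ between these alternatives. The width limit leaves 2164 of the 5730 shared regions to test, and 27 of the 323 called regions are among them. In the do series 1 of the 9 named shared regions that could be tested kept its call; the other 8 differed by 57.1 to 75.2 points in the same directions (limma adjusted p = 0.0574 to 0.153). Region counts fell with fewer peaks or libraries: both tissues 9841 (do series), 6852 (equal length) and 23150 (consensus of 3), heart alone 4789, 15913 and 33522, and liver alone 13496 at equal length; the cause was not tested further. Alternatives with hearts of 1 input, without the pool at equal length, of the top 40000 peaks and of regions of at least 100 bases were chosen after seeing the data. No paired analysis was possible because no animal gave an H3K4me1 library of both tissues. Not run were the classes made without a library in the do series, the top 40000 with the pool and the top 20000 at the stricter q, for which a list or group was too short.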
